A study of Arabidopsis thaliana with 20 samples.

Results

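Binding of HSFA1d 24 h after wounding was compared with binding before wounding (time 0) in whole seedlings of Arabidopsis thaliana. The members are the peaks of the list for 24 h (W24h) and of the list for wounding time 0 (WT0), 1831 of the 7502 joined peaks in the 6 lists of the series. Rows of 1 list that carried the same fold enrichment and q and that overlapped or adjoined were joined into peaks, and a dense stretch of chromosome 2 from 3.2 to 3.65 Mb and the first 50 kb of that chromosome were left out. This gave 426 peaks in W24h and 1405 in WT0. A W24h peak was kept when it overlapped a WT0 peak by at least 1 bp and gained when it overlapped none, and a WT0 peak with no overlapping W24h peak was lost.

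The seedlings of every group were 2 weeks old, of mixed Columbia-0 and Wassilewskija background, and carried pHSFA1d::HSFA1d-GFP, in which the HSFA1d promoter drives the factor fused to GFP. They were grown in constant light at 22 °C, and chromatin was pulled down through the GFP tag. For wounding, about 60 seedlings were cut repeatedly with a razor blade and kept on MS for 10 min (W10min), 3 h (W3h) or 24 h. Lists of a separate heat series, time 0 (HT0) and 30 min at 37 °C (HS), serve only to say where else a peak was listed. Each wounding condition is 1 ChIP sample with 1 input sample, so replicate spread cannot be given for any value, no test was possible, and a difference between W24h and WT0 cannot be told apart from a difference between 2 libraries. Precipitations from plants without the fusion were not analysed here. The labels give at least 10 M mapped reads per library, and depth is otherwise unknown. In whole seedlings, fewer cells with the factor bound and less factor bound in each cell cannot be told apart.

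HSFA1d belongs to the class A1 heat shock factors, the transcription factors that start the heat shock response of plants. They bind heat shock elements in the promoters of chaperone genes and of secondary factors such as HSFA2, and HSP70 and HSP90 proteins are known to hold them back in cells without stress. Wounding of seedlings also starts jasmonate signalling within minutes and, over days, the regrowth of tissue at the cut.

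The 2 lists differed in length and in the kind of sequence they named. Of the 1405 WT0 peaks, 151 (10.7%) were met by a W24h peak and 1254 (89.3%) were lost. Of the 426 W24h peaks, 150 were kept and 276 (64.8%) were gained. Peaks that touched a promoter were 84.3% of the WT0 list and 44.6% of the W24h list, while peaks on transposable element genes, annotated genes that lie within transposons, were 6.19% of WT0 and 47.2% of W24h. The share on transposable element genes was 9.51% in W10min and 23.0% in W3h, and it was 43.6% in HT0, the untreated list of the heat series, so it was high in 1 unwounded list and low in the other.

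The middle and the top of the fold values were alike in the 2 lists, while the share of strong peaks by q was not. The median fold enrichment of ChIP over input was 1.82 in WT0 and 1.78 in W24h, with maxima of 5.22 and 5.15. A q of at most 0.05 was carried by 48.5% of WT0 peaks and 47.7% of W24h peaks, so most peaks of either list did not pass that q. A q of at most 1e-05 was carried by 90 of 1405 peaks in WT0 and 54 of 426 in W24h, and 31 of these 54 lay on transposable element genes. Fold and q are the authors' values for a peak and are given side by side, with no ratio formed between lists. In the stretch of chromosome 2 that was left out, the median fold was 3.91 in both lists, over 69 peaks in WT0 and 72 in W24h.

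**Figure D1:**
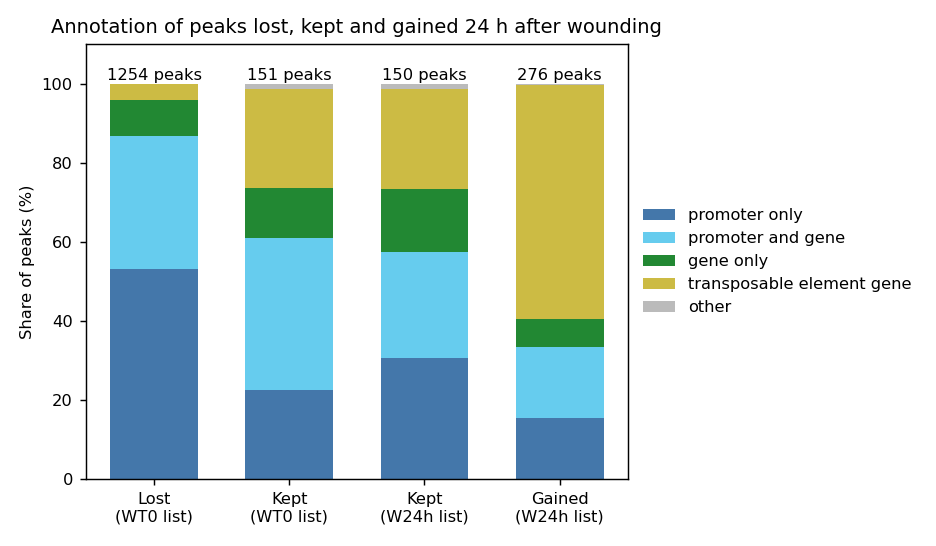
Bars show the share of peaks (%) by annotation for lost and kept peaks of the WT0 list and kept and gained peaks of the W24h list, with the number of peaks above each bar. Promoter classes fill most of the bar of the 1254 lost peaks, and transposable element genes 59.1% of the bar of the 276 gained peaks.

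Lost peaks were 89.3% of the WT0 list, so their annotation was near that of the whole list by construction. Of the 1254, 1091 (87.0%) touched a promoter, against 84.3% of all WT0 peaks, 537 (42.8%) a gene and 49 (3.91%) a transposable element gene. Among the 151 kept WT0 peaks these shares were 62.3% for promoters, 51.7% for genes and 25.2% for transposable element genes. Lost promoter peaks were spread along the arms of the chromosomes. On chromosome 1, the middle 80% of the 278 lost promoter peaks lay between 1.1 and 29.6 Mb. Lost peaks of all kinds were often found in no other list. Most were listed at time 0 alone among the wounding lists, since 879 (70.1%) met neither a W10min nor a W3h peak and 743 (59.3%) met no other list at all. A further 225 met W10min and not W3h, 108 met both, and 42 met W3h and not W10min.

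Gained peaks were mostly on transposable element genes, which made up 163 of the 276 (59.1%), against 102 (37.0%) that touched a promoter. On each chromosome most gained peaks on transposable element genes sat within 1 stretch of a few Mb. On chromosome 1 the middle 80% of these 42 peaks lay between 13.2 and 18.1 Mb. On chromosome 4 the same share of 35 lay between 1.9 and 4.8 Mb. The kept W24h peaks on transposable element genes lay between 15.2 and 17.3 Mb on chromosome 1 and between 1.8 and 4.8 Mb on chromosome 4. Their range was 10.9 to 12.4 Mb on chromosome 5, and wider on chromosomes 2 (0.1 to 5.6 Mb) and 3 (12.3 to 22.5 Mb). Reads of 50 bases from near-identical transposon copies cannot be assigned to 1 copy with certainty, so these positions are uncertain.

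Of the 163 gained peaks on transposable element genes, 68 (41.7%) met a peak of HT0, 57 (35.0%) met HS, 33 (20.2%) met W3h and 28 (17.2%) met W10min. Of the 92 gained promoter peaks without such a gene, 28 (30.4%) were met in W10min, 22 (23.9%) in HS, 17 (18.5%) in W3h and 11 in HT0, so HT0 and W10min changed places at the ends of the order. Kept peaks of both kinds were widely shared. Of 86 kept promoter peaks, 82.6% were met in W10min, 68.6% in W3h, 57.0% in HT0 and 60.5% in HS, and of 38 kept peaks on transposable element genes, 71.1%, 68.4%, 81.6% and 76.3% were met in the same order. The gained peaks on transposable element genes overlapped HT0 more often than either list of wounded plants, and the lists differ in length (1136 peaks in HT0, 1367 in W10min and 548 in W3h).

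**Figure D2:**
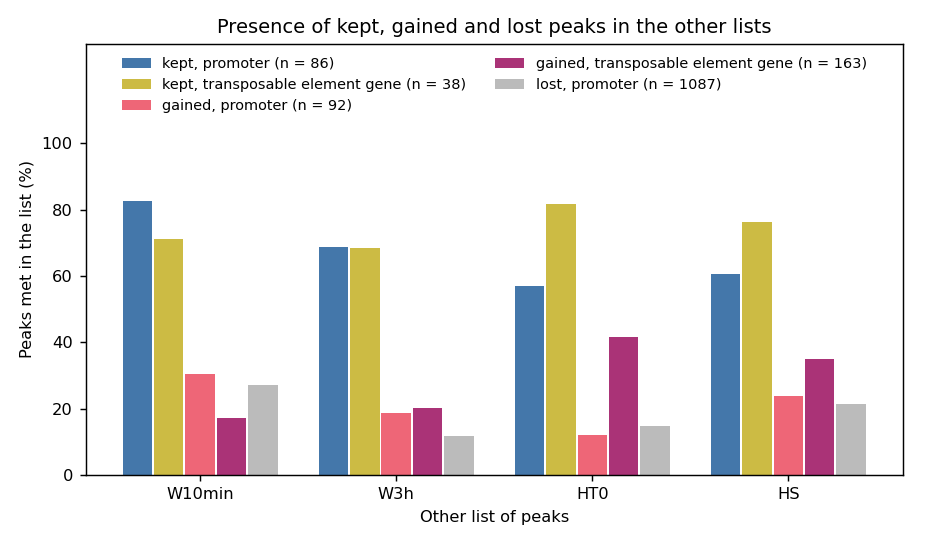
Bars show the share (%) of kept, gained and lost peaks, split into promoter peaks and peaks on transposable element genes, that overlapped a peak of 4 other lists. Kept promoter peaks stand highest in W10min at 82.6%, kept peaks on transposable element genes stand highest in HT0 at 81.6%, and gained peaks on transposable element genes stand higher in HT0 (41.7%) than in W10min (17.2%).

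Strong WT0 peaks were kept more often than weak ones, though not in every step of q. Of 90 WT0 peaks with a q of at most 1e-05, 50 (55.6%) met a W24h peak, against 62 of 591 (10.5%) with a q between 1e-05 and 0.05 and 25 of 523 (4.78%) with a q above 0.05 and below 1. At a q of 1, 14 of 201 (6.97%) met a W24h peak, and 9 of these 14 lay on transposable element genes. The same 90 strong peaks were met in W10min in 74 cases (82.2%) and in W3h in 67 (74.4%). Annotation went with it too: 34 of 701 peaks in a promoter only (4.85%), 58 of 478 in a promoter and a gene (12.1%), 19 of 135 in a gene only (14.1%) and 38 of 87 on a transposable element gene (43.7%) were kept.

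Read from the W24h side, all but 1 of the strong peaks off transposable element genes were present in WT0. Of 54 W24h peaks with a q of at most 1e-05, 32 met WT0, and 21 of the other 22 lay on transposable element genes. In a promoter only, 9 of 10 such peaks met WT0, and in a promoter and a gene all 9 did. The exception was a promoter peak of AT5G34581 at chromosome 5, 12918218 to 12918371, fold 2.39, q 2.47e-09.

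**Figure D3:**
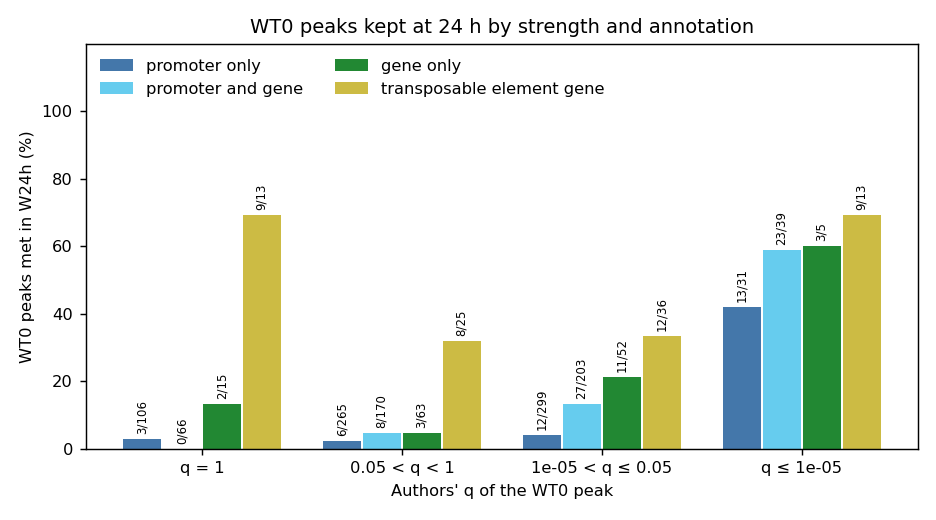
Bars show the share (%) of WT0 peaks met by a W24h peak, by the authors' q of the WT0 peak and by annotation, with kept over all peaks above each bar. The class at 1e-05 or below reaches 23 of 39 for peaks in a promoter and a gene, and the promoter class between 1e-05 and 0.05 reaches 12 of 299.

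A peak was credited to each gene that its rows named, whether in the promoter or in the gene body. Of 27444 nuclear coding genes, 1880 (6.85%) had a peak in WT0 and 334 (1.22%) in W24h. Of those 1880, 184 (9.79%) were kept and 1696 (90.2%) were lost, and 150 of the 25564 genes without a WT0 peak (0.587%) were gained. The same 1880 genes had a peak in W10min in 721 cases (38.4%) and in W3h in 341 (18.1%). These shares are the background for the gene classes below, and neighbouring genes can share 1 peak.

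Chaperone and heat shock factor genes, 95 in 7 lists, were named by peaks in 27 cases in WT0, 47 in W10min, 32 in W3h and 13 at 24 h. Of the 27, 10 were kept (37.0%), 17 were lost, and 3 others were gained. The 10 kept genes had the higher WT0 folds, with a median of 2.94 (range 1.88 to 4.61) against 1.94 (1.58 to 3.09) for the 17 lost genes. All 10 kept genes were also listed in W10min, W3h and HS. Of the 17 lost genes, W10min listed 16, W3h 10 and HS 15. Among all coding genes, W10min listed 83.2% of the 184 kept genes, W3h 67.4% and HS 57.1%. For the 1696 lost coding genes these shares were 33.5%, 12.8% and 28.6%.

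**Figure D4:**
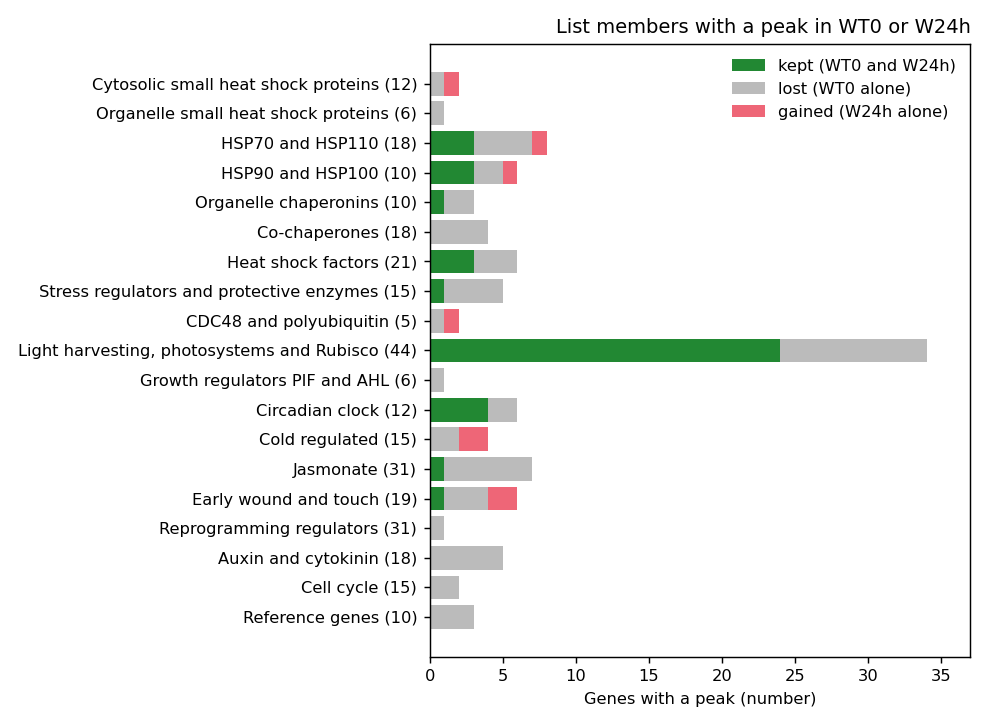
Bars show the number of members of each gene list (list size in parentheses) with a peak in both WT0 and W24h (kept), in WT0 alone (lost) or in W24h alone (gained). The photosynthesis list has 24 kept and 10 lost genes, and co-chaperones, auxin and cytokinin genes and reference genes have no kept gene.

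Among cytosolic HSP70 genes, HSC70-1, a constitutive member of the family, had the highest fold of any chaperone gene in W24h. Its peak at chromosome 5, 556268 to 556717 (TAIR10), over promoter and gene, had a fold of 4.61 in WT0, 8.30 in W10min, 4.39 in W3h and 3.06 at 24 h, where its q was 7.75e-10. HSC70-3, another constitutive member, had folds of 3.21, 7.16, 5.19 and 2.67 in the same order, with its W24h peak in the promoter at chromosome 3, 2905738 to 2906118. For both genes the fold was highest at 10 min and lowest at 24 h among the 4 wounding lists.

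The heat-inducible gene HSP70 was gained. It was not listed in WT0 and had folds of 3.58 in W10min, 2.54 in W3h and 2.04 at 24 h, and 5.55 in HS. The chloroplast gene cpHsc70-2 was kept, with folds of 2.67, 7.16, 3.19 and 2.04 from WT0 to W24h. The 4 lost members were HSP70-15, an HSP110-like gene (WT0 fold 2.85), cpHsc70-1 (2.24), the mitochondrial MTHSC70-2 (2.18) and Hsp70-2 (1.74). At the lost sites the W10min folds were 4.73 for HSP70-15, 3.17 for cpHsc70-1, 3.92 for MTHSC70-2 and 1.96 for Hsp70-2, each above its WT0 fold. The WT0 peaks credited to Hsp70-2 lay in its promoter and also inside the kept gene HSC70-1. Hsp70-2 had a stronger W10min peak of 3.24 at another site, over its promoter and gene, which met no WT0 peak.

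HSP90 genes encode the chaperones of signalling proteins. HSP90.2 had folds of 4.12 in WT0, 7.29 in W10min, 5.09 in W3h and 2.42 at 24 h, at chromosome 5, 22686647 to 22686838, over promoter and gene. HSP90.3 and HSP90.4 shared 1 peak, which lay in the promoter of both genes and reached into HSP90.3, with folds of 2.31, 7.56, 4.69 and 2.29. These genes are near-identical copies, and how reads were split between them is uncertain. HSP90.5, which encodes the chloroplast HSP90, was gained at a fold of 1.91 after 3.65 in W10min and 1.75 in W3h. Of the HSP100 disaggregases, HSP101 (WT0 fold 1.94) and the organelle member CLPB4 (1.64) were lost, and only HSP101 of these had been listed in W3h, at 1.70.

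The chaperonins listed here fold proteins inside organelles. Cpn60beta2, a chloroplast subunit, was kept, with folds of 3.70 in WT0, 7.29 in W10min, 2.94 in W3h and 2.36 at 24 h. CPN60A (WT0 fold 2.31) and CHL-CPN10 (3.09), a co-chaperonin of the chloroplast, were lost. The CHL-CPN10 peak, in a promoter at chromosome 2, 18423088 to 18423591, was among the 12 strongest lost peaks of the genome.

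Co-chaperones, the partners that guide HSP70 and HSP90, had no peak at 24 h. Of 18 genes, 4 had a peak in WT0, 8 in W10min, 7 in W3h and 0 at 24 h. The lost genes were J3 (WT0 fold 2.24), the immunophilin ROF1 (2.12), the J-protein gene AT2G20560 (1.82) and BAG7 (1.82). ROF1 had a fold of 5.00 in W10min and 2.44 in W3h, and J3 had 4.32 and 3.24, so both were still listed at 3 h. The loss of all 4 is near the background loss of 90.2%.

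Small heat shock protein genes encode holdases for unfolded proteins, and few of the cytosolic genes had a peak in WT0, W3h or W24h. Of 12 cytosolic genes, 1 had a peak in WT0, 6 in W10min, 1 in W3h, 1 in W24h and 10 in HS. HSP17.4B was gained, in a promoter at chromosome 1, 20180332 to 20180487, with a fold of 2.10 in W24h and 2.09 in W10min. That promoter peak is also assigned to ASIL1 and AT1G54070. HSP17.6A-CI (WT0 fold 1.82) and, of 6 organelle genes, HSP23.5 (2.00) were lost.

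Heat shock factor genes numbered 21, of which 6 had a peak in WT0 and 3 in W24h, all 3 kept. HSFA2, the heat-induced activator that prolongs the response, had folds of 3.21 in WT0, 7.22 in W10min, 3.34 in W3h and 1.97 at 24 h, at chromosome 2, 11135417 to 11135610, in a promoter. HSFB2B, a class B factor of the repressor type, had folds of 2.18, 4.05, 2.74 and 2.74 and so stood higher in the W24h list than in WT0. The gene HSFA1D itself had folds of 1.88, 2.30, 1.98 and 1.47 at its kept site, with a W24h q of 0.253, and a gained peak inside the gene had 1.59 with a q of 0.114. Every group carried a fusion with the HSFA1d promoter and factor. Reads from that fusion and from the native gene cannot be told apart at these HSFA1D sites. HSFB1 (WT0 fold 1.70), HSFA3 (1.58) and HSFA7A (1.58) were lost, and of these HSFA7A had still been listed at 3 h.

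**Figure D5:**
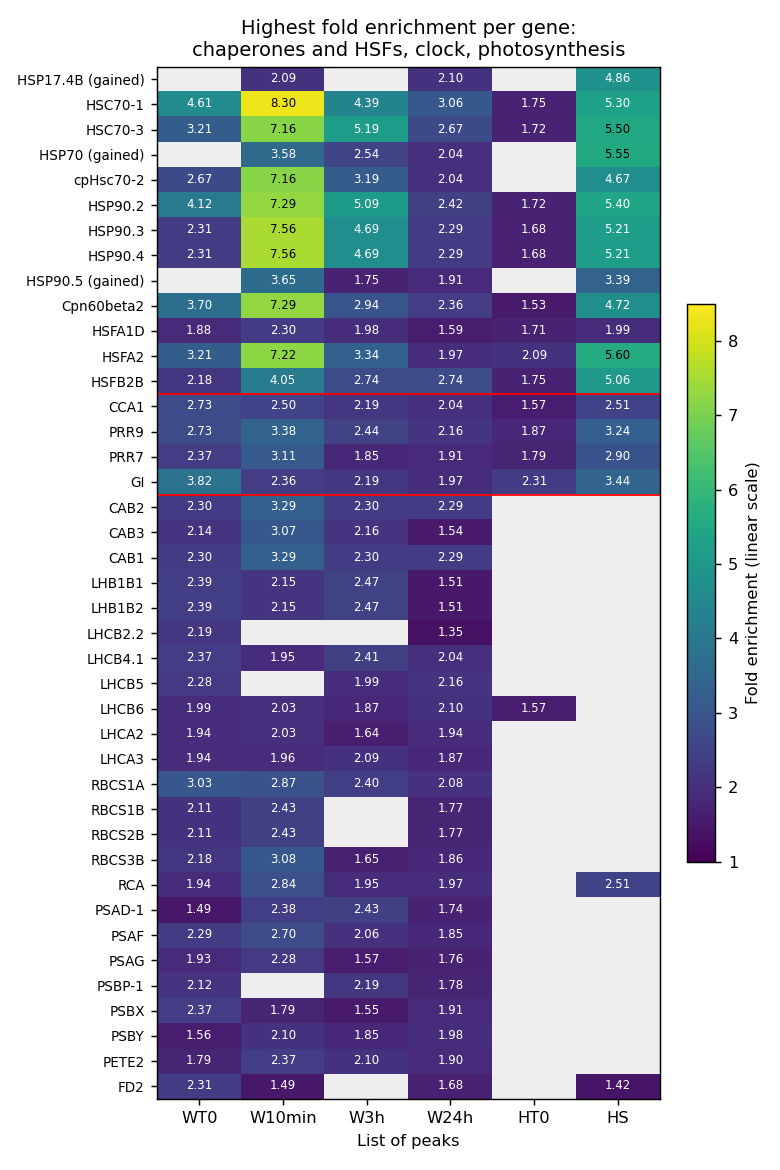
Numbers and colour give the highest fold enrichment (linear scale) of each gene in the 6 lists, with grey where no peak was listed, and values of 1 gene can come from different sites; the red lines part chaperone and heat shock factor genes, clock genes and photosynthesis genes. HSC70-1 goes from 4.61 in WT0 through 8.30 to 3.06 in W24h, and most photosynthesis genes are grey in HT0 and HS.

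Counted by gene, the photosynthetic apparatus was the class with the largest share of WT0 genes still listed. Of 44 genes for light-harvesting proteins, photosystem subunits, electron carriers and Rubisco, 34 had a peak in WT0, 27 in W10min, 24 in W3h and 24 at 24 h. All 24 of the last were kept, which is 70.6% of the 34, against 9.79% of all coding genes with a WT0 peak. A gene counted as kept through a peak at any of its sites. Counted by peak, 25 of the 53 WT0 peaks of these genes (47.2%) were met in W24h, against 8.57% for all coding genes. That share was 50.0% for clock genes and 50.0% for HSP90 and HSP100 genes. The W24h folds of the 24 genes were modest, with a median of 1.87 and a range of 1.35 to 2.29. Of their 26 peaks, 13 had a q of at most 0.05. Of the 44 genes, HT0 named 1 and HS named 5, beside 785 and 2077 of all 27444 coding genes. None of the 26 W24h peaks met a peak in either heat list. Of the 233 W24h peaks that named any coding gene, 74 met HT0 and 88 met HS.

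The share kept was also counted within classes of WT0 strength. Of 22 photosynthesis genes whose best WT0 q lay between 1e-05 and 0.05, 17 (77.3%) were kept, against 90 of 834 (10.8%) of all coding genes in that class and 4 of 11 (36.4%) of chaperone and heat shock factor genes. At a q of at most 1e-05 the shares were nearer, 5 of 7 for photosynthesis genes, 6 of 8 for chaperone and heat shock factor genes and 58 of 110 (52.7%) for all coding genes.

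The photosynthesis peaks lay over gene bodies. Of the 24 genes with a W24h peak, 23 (95.8%) had it in the gene, and 33 of 34 did in WT0, against 38.3% of all coding genes with a peak in W24h and 31.2% in WT0. When promoter rows alone were counted, 7 of 16 photosynthesis genes were kept (43.8%), against 8.28% of coding genes. With both lists held to a q of at most 0.05, 13 of 29 photosynthesis genes (44.8%) were kept, no higher than the 9 of 19 chaperone and heat shock factor genes (47.4%). Several of these genes are near-identical neighbours that share peaks, so the 24 genes are fewer than 24 independent sites.

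Light-harvesting genes encode the proteins that hold antenna chlorophyll. The peak of CAB1, which reached the promoter of its neighbour CAB2, had the highest fold of the list in W24h, with 2.30 in WT0, 3.29 in W10min, 2.30 in W3h and 2.29 at 24 h, at chromosome 1, 10478064 to 10478924. LHCB5, of the minor antenna, had 2.28 in WT0, no peak in W10min, 1.99 in W3h and 2.16 at 24 h. LHCB6 had 1.99, 2.03, 1.87 and 2.10, and LHCB4.1 had 2.12, 1.69, 2.19 and 2.04 at the site that was strongest in W24h. For CAB1, LHCB5 and LHCB6 the values at 24 h were close to those at time 0, whereas LHB1B1 and LHB1B2 had 2.39 in WT0 and 1.51 in W24h. Kept sites of CAB3 and LHCB2.2 also stood lower in W24h, with 2.14 and 2.19 in WT0 and 1.54 and 1.35 in W24h. LHCA3 had 1.73 in WT0 and 1.87 in W24h at its kept site. LHCA2 had 1.94 and 1.66 at the site shared with BRH1, and 1.59 and 1.94 at another site. The lost antenna genes were LHCA1 (WT0 fold 2.55), LHCA4 (2.50), LHCB3 (2.04), LHCB2.3 (1.88), LHCB4.2 (1.82) and LHCB2.1 (1.76).

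Rubisco fixes carbon dioxide, and its small subunits are encoded by the RBCS genes. RBCS1A had a kept peak with folds of 2.42 in WT0, 2.51 in W10min, 2.10 in W3h and 2.08 at 24 h, at chromosome 1, 25048348 to 25048650. A second WT0 peak in the same gene, at 25048890 to 25049263 with a fold of 3.03, was listed in W10min (2.87) and W3h (2.40) and was lost at 24 h. RBCS3B, RBCS1B and RBCS2B were kept with W24h folds of 1.86, 1.77 and 1.77, the last pair through 1 shared peak. RCA, Rubisco activase, was kept at 1.97. Of the other genes, PSAD-1, PSAF and PSAG of photosystem I, PSBP-1, PSBX and PSBY of photosystem II, the plastocyanin gene PETE2 and the ferredoxin gene FD2 were kept at W24h folds between 1.68 and 1.98, while PSBO1 (WT0 fold 2.43), PSAL (2.12), PRK (2.06) and PSBR (1.70) were lost.

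Clock genes set daily rhythms of transcription. Of 12 genes, 6 had a peak in WT0, 6 in W10min, 6 in W3h and 4 at 24 h, all kept. These 4 are 66.7% of the 6, against 9.79% of all coding genes with a WT0 peak. At a best WT0 q of at most 1e-05, 3 of 4 clock genes were kept, against 58 of 110 (52.7%) of all coding genes. Between 1e-05 and 0.05, 1 of 2 was kept, against 90 of 834 (10.8%). CCA1, a morning repressor, had folds of 2.73 in WT0, 2.50 in W10min, 2.19 in W3h and 2.04 at 24 h. At its kept site, PRR9 had 2.73, 2.30, 2.44 and 2.16, PRR7 had 2.37, 3.11, 1.85 and 1.91, and GI had 3.82, 2.30, 1.75 and 1.97. PRR9 and GI each had a second promoter site, absent from W24h, with higher folds of 3.38 and 2.36 in W10min. All 4 W24h peaks lay in promoters, had a q of at most 0.05 and met a peak in each of the 5 other lists. LUX (WT0 fold 2.79) and LHY (1.94) were lost.

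Of 15 stress regulators and protective enzymes, 5 had a WT0 peak and 1 was kept, APX1 for cytosolic ascorbate peroxidase, with folds of 2.55 in WT0, 2.84 in W10min, 2.34 in W3h and 1.97 at 24 h. Lost were 4 of the 5, near the background of 90.2%. GolS2 (WT0 fold 2.37) and GolS1 (1.82), which make galactinol, the chaperone-like BOB1 (2.24) and the catalase gene CAT2 (2.18) were lost. The polyubiquitin gene UBQ11 was gained at 1.91, its W3h peak of 1.65 lying at another site, and UBQ10 (1.82) was lost.

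Of 31 jasmonate genes, 7 had a peak in WT0, 11 in W10min, 3 in W3h and 1 at 24 h. The loss of 6 of the 7 is near the 90.2% lost among all coding genes with a WT0 peak. AOS, an enzyme of jasmonate synthesis, was kept, with folds of 1.88 in WT0 and 1.97 in W24h at a site not listed in W10min or W3h. Its W10min peak of 2.23 lay at another site. VSP2, a wound-induced storage protein gene (WT0 fold 2.59), JAR1, which conjugates jasmonate to isoleucine (2.37), and the repressor genes JAZ10 (2.24), JAZ6 (2.18), JAZ2 (1.94) and JAZ5 (1.64) were lost.

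Early wound and touch genes gave 2 of the 8 list members gained. ZAT6, a zinc finger gene of stress responses, was not listed in WT0 and had folds of 2.70 in W10min, 3.34 in W3h and 2.48 at 24 h, at chromosome 5, 1217184 to 1217517. It had the highest fold of the gained peaks off transposable element genes, with a q of 1.58e-05. It met an HS peak of fold 3.34 and no HT0 peak, and it lies in promoters that ZAT6 shares with CYP84A4 and AT5G04347. ERF6 was listed in W24h alone, at 1.85 with a q of 0.0879. ERF4 had a peak in both lists, with folds of 2.43 and 1.91, yet the W24h peak missed the WT0 peak by 11 bases and counts as gained at the level of peaks. ZAT12 (WT0 fold 2.00), ERF5 (1.82) and TCH4 (1.64) were lost.

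Cold-regulated genes gave 2 further gained genes through 1 peak. COR15A and COR15B, adjacent genes for chloroplast proteins that protect membranes in the cold, were not listed in WT0 and had a fold of 2.43 in W10min and 2.32 in W24h, with no peak in W3h, HT0 or HS. The W24h peak, at chromosome 2, 17711267 to 17711428, lay in COR15A and in the promoter of COR15B. The glycine-rich RNA-binding protein genes CCR1 (WT0 fold 1.88) and GRP7 (1.70) were lost.

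The lists of reprogramming regulators, auxin and cytokinin genes, cell cycle genes, PIF and AHL regulators and reference genes had no member with a peak at 24 h. WIND1, which promotes callus at wounds, had a WT0 peak of 1.64 that no other wounding list met, peaks of 1.89 in W10min and 2.39 in W3h at other sites, and none in W24h. It was the sole member with a WT0 peak among 31 reprogramming regulators. All 5 auxin and cytokinin genes of 18 with a WT0 peak were lost, among them ARR7 (WT0 fold 2.43) and IAA19 (2.00), and so were ARR4 (1.82), IAA3 (1.82) and PIN7 (1.76). PCNA1 (2.24) and E2FA (1.70) of the cell cycle, PIF5 (1.82) of the growth regulators and, of 10 reference genes, GAPC1 (2.00), EF1A (1.82) and ACT7 (1.52) were lost too. Beside the 90.2% of all WT0 genes that were lost, the loss of every member in lists this small is near the background.

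Outside the lists, the strongest kept peaks were listed in nearly every condition. Of the 12 kept peaks with the highest W24h fold, 11 were listed in all 6 conditions, and the exception, at AT2G48160, met neither heat list. They included a promoter peak of AT4G00960 at 5.15, a region over UBQ13 at 4.64, a region over AT3G20360 at 4.22, a promoter peak of AT2G48160 at 3.85 and a peak by HPA1, a gene of histidine synthesis, at 3.06. The UBQ13 region lay beside a long peak at chromosome 1, 24272617 to 24276060, of fold 3.56, also listed in all 6 conditions. Whether sites listed in every condition reflect binding or the placement of reads was not tested. Of the 12 strongest gained peaks, 11 lay on transposable element genes, led by AT3G33080 at 3.17 and AT2G06460 at 2.80.

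The strongest lost peaks were in promoters, 11 of 12, with the exception of 1 on the transposable element gene AT3G29615 (2.86). They were led by AT1G55530 at a WT0 fold of 3.88, a peak shared by BEH4, of the brassinosteroid regulator family, and TBL42 at 3.70, GCP1 at 3.46, CYP78A9, a cytochrome P450 gene, at 3.21 and SHOT1 at 3.15. Further down came AT4G17810 at 2.97 and BRG3 and AT4G30780, both at 2.91. Of the 12, CYP78A9 and AT4G30780 met no other list, and the other 10 met W10min.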

How the data were processed

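ChIP-seq peak lists of 6 conditions were used, 1 list per condition, made from concatenated reads per the labels. The authors deposited for each peak a fold enrichment (a linear ratio) and a −log10 q, per the file headers. Bowtie2, SAMtools, MACS2 and build TAIR10 are named in the submitters' processing notes, without versions or a filter on q. Per the labels, libraries were single reads of 50 bases with at least 10 M mapped reads. Totals are unknown, so no interval or floor that needs read depth is given.

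Starts count from 0, so 1 was added. Rows were joined as described above (858 rows to 509 peaks in W24h, 2859 to 1483 in WT0), and 83 and 78 peaks on chromosome 2 were dropped. Steps were checked on simulated lists. RefSeq (assembly TAIR10.1) gave the gene names and the 27444 coding genes, and no coordinates; 6 identifiers in W24h and 38 in WT0 were not coding genes there. The sources used here do not give the width of the promoter class.

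The members and the 19 gene lists (316 genes) were chosen with earlier results of these data known. Named are the 12 kept and 12 gained peaks with the highest W24h fold, the 12 lost peaks with the highest WT0 fold, list members with a W24h peak, up to 5 lost members of a list by WT0 fold and 6 set genes; AT5G34581 and the lost photosynthesis and jasmonate genes beyond 5 were added after their values were seen. No test was run with 1 sample a group. The planned promoter motif search was not run, since no genome sequence was used here. Python 3.11.15, pandas 2.3.3, numpy 2.4.6 and matplotlib 3.10.9 were used. The alternatives tried concern joining, overlap, q and fold thresholds, list length, the control list, the dropped stretches and promoter rows.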

Additional observations from a re-analysis of the deposited data

How the results depend on the processing

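Counts of kept, gained and lost peaks and genes, of photosynthesis and chaperone or heat shock factor genes, and 2 shares were recomputed under 11 alternatives: 69 of 125 values stayed near the reported value and 56 moved. Gene counts use neither the joining of rows nor the overlap rule. Under the alternatives for joining and overlap they stayed the same by construction, and those values are among the 69. A count stayed within 1.5 times, and a share within the exact 95% binomial interval over peaks. These intervals were 53.0% to 64.9% for gained peaks on transposable element genes and 85.0% to 88.8% for lost peaks at promoters. They treat peaks as independent, give no spread between replicates and serve only to sort the values. With rows not joined, 240 peaks were kept, 2384 lost, 43.0% of gained peaks touched transposable element genes and 72.2% of lost peaks a promoter. With an overlap of 50% of both peaks, 99 were kept and the transposable element share was 52.6%. At a q of at most 0.05 in both lists, 76 peaks were kept, 127 gained and 604 lost, genes numbered 98, 54 and 846, photosynthesis genes 13 kept and 16 lost, chaperone and factor genes 10 lost, and the transposable element share was 67.7%. At 1e-05 the peaks were 28, 26 and 61, the genes 29, 2 and 81, photosynthesis genes 3 and 4, chaperone and factor genes 2 and 6, and the share 92.3%.

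With equal numbers of peaks, 77 were kept and 347 lost, genes 112 kept and 494 lost, photosynthesis genes 6 lost, chaperone and factor genes 8 lost, and 89.6% of lost peaks touched a promoter. At or above the median fold, peaks were 74, 148 and 727, genes 108, 84 and 1019, and photosynthesis genes 13 kept and 16 lost. With HT0 added to the control, 233 peaks were kept and the transposable element share of gained peaks was 49.2%. With q at most 0.05 in the tested list alone, peaks were 94, 109 and 569, genes 107, 45 and 796, photosynthesis genes 14 kept, chaperone and factor genes 9 lost, and the share 70.6%. With promoter rows alone, 89 peaks were kept and 103 gained, and photosynthesis genes 7 kept. Shorter lists follow from these thresholds by construction.

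The order of the gene classes changed at a q of at most 0.05 in both lists, where 13 of 29 photosynthesis genes (44.8%) and 9 of 19 chaperone and factor genes (47.4%) were kept, against 10.4% of coding genes; the cause was not tested. With equal numbers the shares were 72.7%, 52.9% and 18.5%. No paired analysis was possible because each condition has 1 ChIP sample and 1 pooled list, and for the same reason no sample could be left out. The motif search was not run.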

Other observations

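Genes outside the lists, named here after their values were seen, were also kept. EPR1 and TIC, both tied to the circadian clock, had W24h folds of 1.78 and 1.53, the latter at a q of 1. BT2 and BT5, genes for BTB and TAZ domain proteins, had 1.59 and 1.91, with the BT2 peak at a q of 1. The bZIP factor gene GBF3 had 1.72, the plastid sigma factor gene SIG4 shared a peak of 2.16 with ZIF1, and NYE1, which acts in chlorophyll breakdown, shared a peak of 1.59, also at a q of 1, with PYR4. Among auxin genes outside the list, IAA9 was kept at 1.66 and PID at 2.55, through a peak also assigned to AT2G34655. The flowering genes GI and SVP differed in status, with GI kept and SVP gained at 1.91 through a peak also assigned to AT2G22530.

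Among gained peaks off transposable element genes, BRX, a root growth regulator, had a W24h fold of 2.10 through a peak shared with AT1G31875, JRG21, a jasmonate-regulated gene, had 2.21, and the peptide genes RALFL34 and RALFL27 had 2.10 and 1.97. The cyclin gene CYCD4;2 shared a peak of 2.10 with GRF6. PSBTN, a photosystem II gene outside the photosynthesis list, was gained at 2.14 through a peak shared with RBL. That peak was also met in W10min and W3h. Genes for structural RNAs were in no gained peak. Lost peaks touched 6 tRNA genes and 7 snRNA genes, and kept W24h peaks touched 3 tRNA and 2 rRNA genes.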
